A study of Mus musculus with 9 samples.

Results

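The neuregulin and ErbB genes are 8 of the 37620 gene identifiers counted in ribosome-associated RNA from CA3/CA2 parvalbumin interneurons (PV INs). They were taken by name: the receptor genes Erbb4, Erbb2, Erbb3 and Egfr and the ligand genes Nrg1, Nrg2, Nrg3 and Nrg4. All 8 were matched to an Ensembl identifier of the mouse mm9 annotation, and all 8 passed the filter on low values, which kept 15069 genes with a CPM (counts scaled to library size) of 1 or more in 1 or more samples. Erbb2 was the member nearest to that filter, reaching 1 CPM in 4 of 9 samples and in 1 of 5 shNT samples.

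Neuregulins are membrane-anchored or secreted growth factors whose EGF-like domain binds Erbb3 or Erbb4, and the bound receptors pair with each other or with Erbb2 and phosphorylate their own tails to recruit adaptors of the Ras/MAPK and PI3K/Akt cascades. Egfr binds other members of the EGF family, Erbb2 has no known ligand of its own, and Erbb3 has little kinase activity, so that each of the latter pair relies on a partner. In the hippocampus and neocortex Erbb4 is best known as a receptor of GABAergic interneurons, PV INs among them, where neuregulin signaling has been linked to the formation of excitatory synapses onto these cells and to their output.

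The design asks which transcripts of PV INs differ after mossy fiber contacts onto them are increased. It compared 5 samples from mice given a lentivirus with a non-target shRNA (shNT) with 4 samples from mice given a lentivirus with an shRNA against Ablim3 (shRNA), an actin-binding protein described as a brake on contacts from mossy fibers to PV INs. Both viruses were injected into the dentate gyrus (DG) of PV-Cre; Rpl22HA/HA mice of 2 months, and CA2/CA3 tissue was taken 2 weeks later, so both groups carried the Cre driver, the HA-tagged ribosomal protein Rpl22 and a virus. The Pvalb-driven Cre limits the tag to PV INs, anti-HA beads pull down their ribosomes with the bound mRNA, and RNA from other cells that comes down with the beads is counted as well. Each sample was pooled from 6 mice of both sexes, and p-values measure the spread between such pools.

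Between 18281719 and 34578837 reads were counted on genes per sample. All 12 PV IN markers were detected in all samples. Pvalb itself had 997 ± 287 CPM (SD, n = 5) in shNT and 526 ± 163 CPM (n = 4) in shRNA samples, with FDR = 0.0678 for a log2 fold change of -0.92. Ablim3, which the shRNA targets in DG cells and not in the cells sequenced, had 16.9 ± 5.16 CPM in shNT and 18.5 ± 3.42 CPM in shRNA samples (log2 fold change 0.13, FDR 0.701). This does not check the knockdown in DG. shNT replicate 2 and shRNA replicate 4 stood apart from the rest of their groups. Their mean log2 level of PV IN markers was -0.61 and -1.07 relative to the shNT mean, against 0.10 to 0.24 in the other shNT and -0.40 to 0.07 in the other shRNA samples. Pvalb alone was at 1105 CPM in shNT replicate 2 and at 310 CPM in shRNA replicate 4. In shRNA replicate 4 the summed level of 10 astrocyte markers was 4875 CPM, against 958 to 1230 CPM in the other shRNA samples, and 27.2% of its uniquely aligned reads fell outside annotated exons.

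The neuregulins share a fold held by 6 cysteines, and the coding sequence of that EGF-like domain is shown for Nrg1, Nrg3 and Nrg4 because it is the stretch that defines them as ligands of one receptor family. The sequences run 5′ to 3′ on the coding strand, were read from mm9 (all 3 genes lie on the minus strand) with the introns removed, and have the codons of the 6 cysteines in capitals. The Nrg1 stretch spans exons 2 to 3 of its 9-exon transcript (chr8:32948170-32959870), the Nrg3 stretch exons 2 to 3 of 10 (chr14:39481549-39825342) and the Nrg4 stretch exons 3 to 4 of 8 (chr9:55089984-55128776).
Nrg1: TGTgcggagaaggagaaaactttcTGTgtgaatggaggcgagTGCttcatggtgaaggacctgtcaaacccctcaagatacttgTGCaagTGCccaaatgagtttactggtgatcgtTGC
Nrg3: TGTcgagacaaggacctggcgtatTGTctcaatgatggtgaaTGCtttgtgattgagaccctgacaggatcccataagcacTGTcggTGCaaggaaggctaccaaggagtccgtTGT
Nrg4: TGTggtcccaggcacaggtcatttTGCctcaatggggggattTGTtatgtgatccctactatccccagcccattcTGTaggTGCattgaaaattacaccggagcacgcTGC

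The spacing of the capital codons is the same in all 3 genes except between the third and the fourth, where Nrg1 has 13 codons, Nrg3 12 and Nrg4 10. The search that located the domain let that spacing and the one between the second and the third vary within a range. It fixed the other spacings, so their likeness is not a result. Outside that loop 81 bases, with the required cysteine codons among them, can be placed side by side without gaps. Nrg3 and Nrg4 share 49 of them (60.5%), Nrg1 and Nrg3 44 (54.3%) and Nrg1 and Nrg4 43 (53.1%). All 3 of these stretches cross an intron, and the genes around them are long, which the read counts cannot resolve by domain, since counts were made for whole genes.

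Erbb4 (ENSMUSG00000062209, chromosome 1 from 68078760 to 69154633, minus strand), the receptor that both binds neuregulins and signals by itself, was the most abundant member. The shNT replicates 1 to 5 gave 285, 162, 291, 215 and 235 CPM. The shRNA replicates 1 to 4 gave 166, 264, 236 and 97.9 CPM. The groups overlapped, with shRNA replicate 4 below all shNT samples and the other shRNA samples inside the shNT range. The shNT mean was 237 ± 53.3 CPM (SD, n = 5) and the shRNA mean 191 ± 74.5 CPM (n = 4), and edgeR's quasi-likelihood test gave a log2 fold change of -0.31 ± 0.28 (SE; 95% interval -0.92 to 0.30) with an FDR of 0.429. Without shRNA replicate 4 the log2 fold change was -0.10, and without shRNA replicate 2 it was -0.51. With offsets for gene length and for exon length it was -0.86 (FDR 0.0852) and -0.91 (FDR 0.108). In these bulk samples fewer cells of a type and less RNA per cell cannot be told apart.

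Erbb3 (ENSMUSG00000018166, chromosome 10 from 128004579 to 128026708, minus strand), the neuregulin receptor with a weak kinase and a tail rich in PI3K docking sites, was the member with the clearest separation of the groups. Its level was 2.49, 2.66, 1.27, 0.806 and 1.22 CPM in the shNT replicates, from 16 to 70 reads. It was 2.72, 2.77, 3.53 and 3.51 CPM in the shRNA replicates, from 67 to 82 reads. All 4 shRNA samples lay above all 5 shNT samples, the nearest pair differing by less than the spread within either group. Erbb3 was the only member whose groups did not overlap. Of all 15069 genes tested, 8.97% had shRNA samples wholly above shNT samples, 6.68% wholly below and 15.6% either, so 1 of 8 members is near that background. Means were 1.69 ± 0.830 and 3.13 ± 0.449 CPM, with a log2 fold change of 0.89 ± 0.36 (SE; 95% interval 0.10 to 1.67) and an edgeR FDR of 0.111.

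Erbb3 is also known from the oligodendrocyte lineage and other glia. The 7 markers of oligodendrocyte precursors summed to 48.5 to 85.8 CPM in shNT and 97.6 to 140 CPM in shRNA samples. Of the 7, 4 (Pdgfra, Gpr17, Olig2 and Neu4) were called higher in shRNA samples, beside 1.74% of all genes. The 10 oligodendrocyte markers summed to 799 to 2432 CPM in shNT and 1502 to 3086 CPM in shRNA samples, with 0 of 10 called. No marker of either list was at 0 in all samples. Summed neuronal markers also separated the groups. Those of CA3 and CA2 pyramidal neurons were at 556 to 1395 CPM in shNT and 1450 to 1822 CPM in shRNA samples. Those of DG granule cells were at 67.8 to 125 CPM and 141 to 165 CPM. The part of any of these cells in the Erbb3 difference was not tested. Within the 6 samples whose names begin with YTa31 (3 of each group), the Erbb3 log2 fold change was 0.45 (FDR 0.612).

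Egfr (ENSMUSG00000020122, chromosome 11 from 16652206 to 16818161, plus strand), the receptor for EGF and TGF-alpha, had levels of 6.75, 2.11, 3.91, 2.17 and 2.23 CPM in the shNT replicates. Its levels were 5.21, 4.51, 6.22 and 15.0 CPM in the shRNA replicates. shRNA replicate 4 was the highest sample, and the other 3 shRNA samples lay below shNT replicate 1 but above the other shNT samples. Means were 3.43 ± 2.00 and 7.74 ± 4.90 CPM, with a log2 fold change of 1.16 ± 0.45 (SE; 95% interval 0.18 to 2.15) and an edgeR FDR of 0.101. Without shRNA replicate 4 the log2 fold change was 0.62 and the FDR 0.297, whereas without shNT replicate 1 they were 1.56 and 0.0467, which passes the threshold. The fit without shNT replicate 1 also called 1007 of 15065 genes higher and 410 lower, against 262 and 2 with all samples. Within the YTa31 samples the log2 fold change was 0.28.

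Erbb2 (ENSMUSG00000062312, chromosome 11 from 98273784 to 98299030, plus strand), the partner receptor without a ligand of its own, was the least abundant member in shNT samples. Its level was 1.92, 0.413, 0.617, 0.252 and 0.878 CPM in the shNT replicates, from 5 to 54 reads. It was 1.33, 0.923, 1.21 and 7.57 CPM in the shRNA replicates, from 23 to 168 reads. Only shRNA replicate 4 lay above the highest shNT sample. Means were 0.816 ± 0.660 and 2.76 ± 3.21 CPM, with a log2 fold change of 1.73 ± 0.72 (SE; 95% interval 0.16 to 3.30) and an edgeR FDR of 0.119. Without shRNA replicate 4 the log2 fold change was 0.47, and within the YTa31 samples it was 0.19, so the size of this difference rested on 1 library. That library was also the one with the astrocyte markers named above, and Egfr and Erbb2 are both known outside neurons. Its 9 endothelial markers were high too, with a sum of 829 CPM. That sum was 63.8 to 138 CPM in the other shRNA samples and 101 to 315 CPM in shNT samples. All 10 astrocyte markers had a positive log2 fold change (median 1.45), and 0 of 10 were called. The part of astrocytes and endothelial cells in the Egfr and Erbb2 values was not tested.

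Among the ligands, Nrg3 (ENSMUSG00000041014, chromosome 14 from 39182138 to 40286376, minus strand), a neuregulin that binds Erbb4 and is largely neuronal, was the most abundant. Its level was 49.5, 31.8, 53.4, 38.9 and 31.4 CPM in the shNT replicates. It was 39.2, 57.6, 50.3 and 50.6 CPM in the shRNA replicates. The ranges overlapped over most of their length, and 1 shRNA sample lay above all shNT samples. Means were 41.0 ± 10.1 and 49.4 ± 7.61 CPM, with a log2 fold change of 0.27 ± 0.19 (SE; 95% interval -0.15 to 0.69) and an edgeR FDR of 0.324. Within the YTa31 samples it was 0.10. With an offset for gene length, which moved the median of all genes by -0.18, the Nrg3 log2 fold change turned to -0.28.

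Nrg2 (ENSMUSG00000060275, chromosome 18 from 36177333 to 36357034, minus strand), a ligand of Erbb3 and Erbb4, was the next most abundant ligand. Its levels were 9.56, 8.25, 11.0, 7.11 and 6.71 CPM in the shNT replicates. They were 8.70, 9.91, 10.8 and 8.20 CPM in the shRNA replicates. All 4 shRNA samples lay inside the shNT range. The log2 fold change was 0.14 ± 0.19 (SE; 95% interval -0.28 to 0.56) with an edgeR FDR of 0.624, and its sign depended on the samples and the scaling: it was -0.0086 within the YTa31 samples, -0.023 without shNT replicate 5 and -0.30 with the gene-length offset.

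Nrg1 (ENSMUSG00000062991, chromosome 8 from 32928500 to 33119581, minus strand), the founding neuregulin and a ligand of Erbb3 and Erbb4, was measured with only 15 to 75 reads per sample. Its level was 2.24, 0.688, 1.20, 1.92 and 0.784 CPM in the shNT replicates. It was 1.26, 1.31, 2.37 and 3.38 CPM in the shRNA replicates. 2 of 4 shRNA samples lay above all shNT samples, and the other 2 lay inside the shNT range. The log2 fold change was 0.60 ± 0.44 (SE; 95% interval -0.37 to 1.57) with an edgeR FDR of 0.340. It was 0.26 without shRNA replicate 4.

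Nrg4 (ENSMUSG00000032311, chromosome 9 from 55068029 to 55174651, minus strand), the short neuregulin that binds Erbb4, was measured with 34 to 71 reads per sample. Its level was 2.17, 2.84, 1.82, 1.97 and 2.23 CPM in the shNT replicates. It was 2.36, 1.70, 1.79 and 2.52 CPM in the shRNA replicates. The log2 fold change was -0.07 ± 0.25 (SE; 95% interval -0.63 to 0.49) with an edgeR FDR of 0.859, and it ran from -0.49 with the gene-length offset to 0.036 without shNT replicate 2. It was -0.46 with the exon-length offset, -0.34 with the share of reads outside exons in the fit and 0.017 without shRNA replicate 2. Of the exon length of Nrg4, 8.97% overlaps other genes (Fbxo22 and Gm15625), and 3.11% of that of Nrg1 overlaps Gm17443. Counting without strand cannot assign reads there with certainty. In Erbb2 0.173% overlaps 1810046J19Rik, and the other 5 members had no such overlap.

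**Figure D1:**
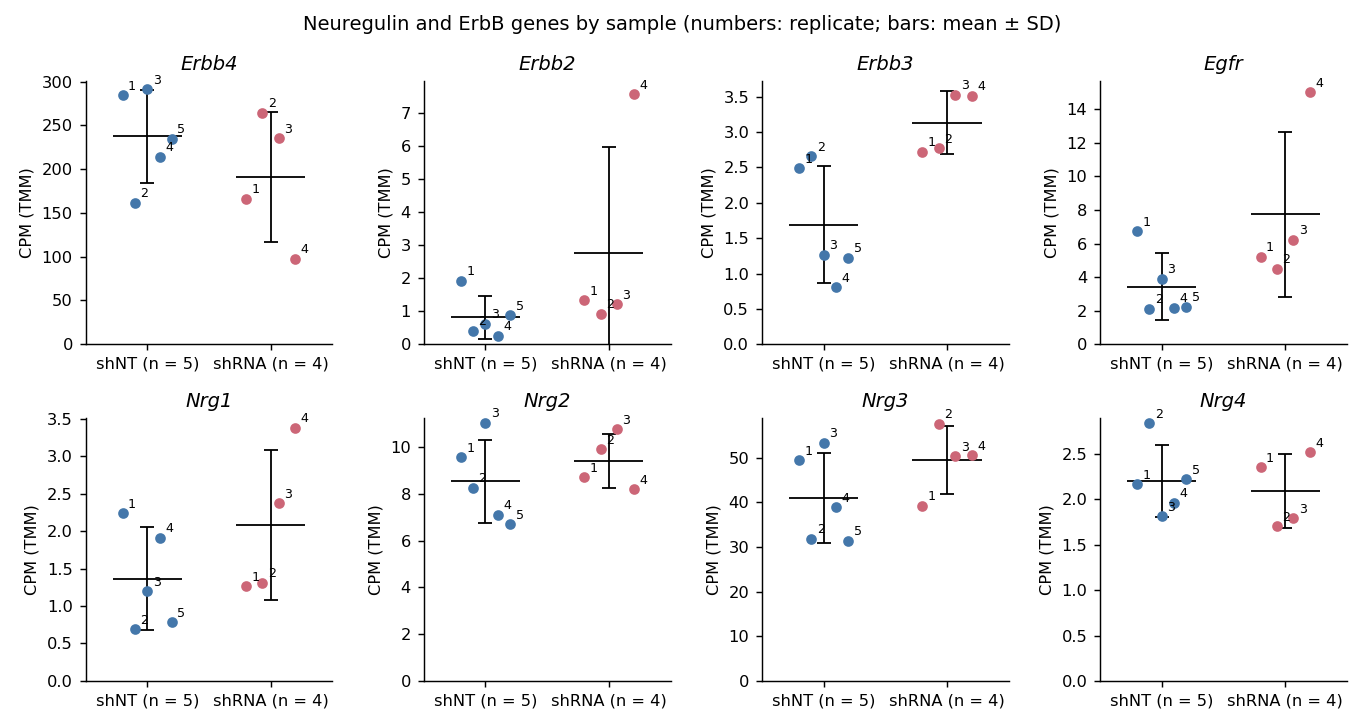
Level of each neuregulin and ErbB gene in CPM (TMM-normalized, vertical axes from 0) in 5 shNT and 4 shRNA samples, with points numbered by replicate and bars for the mean ± SD. Erbb3 is the only gene whose shRNA points all lie above its shNT points, and the shRNA means of Erbb2 and Egfr are drawn up by replicate 4, at 7.57 and 15.0 CPM.

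0 of 8 neuregulin and ErbB genes were called as different between the groups by edgeR's quasi-likelihood test, for which both a change of 1.5-fold or more and an FDR (adjusted over all genes) under 0.05 were required. The background was 1.74% of 15069 genes called higher (262 genes) and 0.0133% called lower (2 genes). By the unadjusted p of edgeR's model, 3 members had a higher level in shRNA samples (Erbb2 at 0.0339, Erbb3 at 0.0296 and Egfr at 0.0241) at a threshold of 0.05 and 0 were lower, while 20.7% of all genes were higher and 13.4% lower at that level. DESeq2 called 1 member, Egfr (log2 fold change 1.13, FDR 0.0490), and limma voom with sample quality weights called 2, Erbb3 (1.36, FDR 0.00401) and Egfr (0.95, FDR 0.0199). These tests also called far more of the 15069 genes, 1519 higher and 844 lower with DESeq2 and 2301 and 618 with limma voom. Exact two-sided permutation tests over the samples, on log2 CPM, gave p = 0.0397 for Erbb3, 0.0635 for Egfr and 0.103 for Erbb2, and between 0.183 and 0.659 for the other 5 members, where the smallest p possible is 0.00794.

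The median log2 fold change of the 4 receptors was 1.03, with Erbb4 negative, below all 4 neuregulins, and the other 3 positive. Without shRNA replicate 4 this median was 0.54, and within the YTa31 samples 0.23. The 4 neuregulins had a median of 0.20, with Nrg4 negative, which was 0.22 without that library, 0.046 within the YTa31 samples and -0.29 with the gene-length offset. Whether the classes differ was not tested. For the 8 genes together it was 0.44 with 6 positive, beside a median of 0.11 and 57.9% positive over all genes tested. In these samples the log2 fold change also moved with gene length. Its median was -0.13 over 4198 genes of up to 10 kb, 0.41 over 1679 genes of 100 to 300 kb and 0.31 over 51 genes longer than 1000 kb. Erbb4 (1076 kb) and Nrg3 (1104 kb) are in the longest class, Egfr, Nrg1, Nrg2 and Nrg4 (107 to 191 kb) in the class of 100 to 300 kb, and Erbb2 and Erbb3 (25.2 and 22.1 kb) among the shorter genes, whose class of 10 to 30 kb had a median of 0.04.

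**Figure D2:**
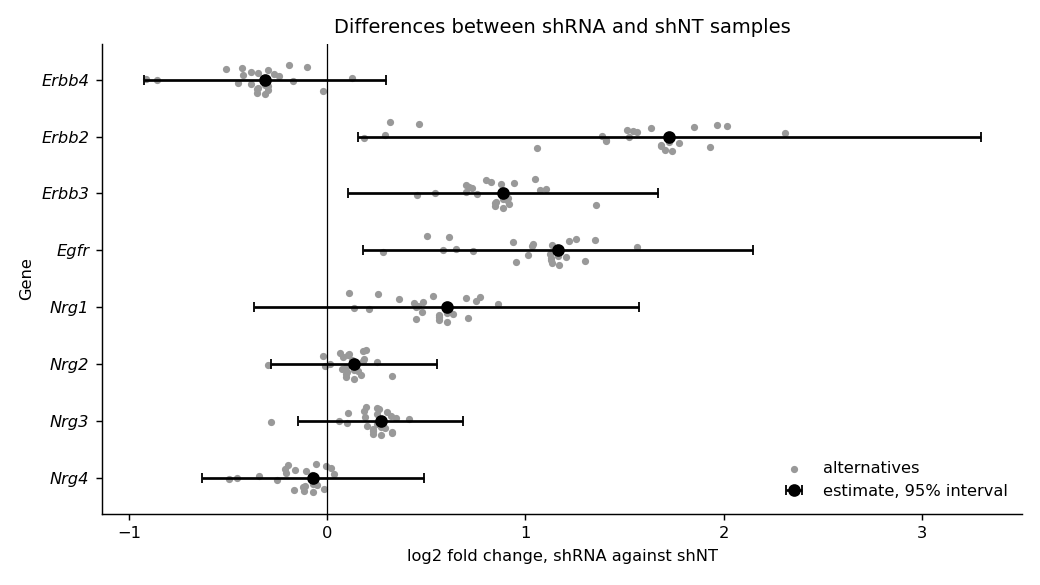
Log2 fold change of each gene, shRNA against shNT (horizontal axis), with black points and bars for the edgeR estimate and its 95% interval and gray points for 24 alternative analyses. The intervals of Erbb2, Erbb3 and Egfr lie above 0 and those of the other 5 genes include 0. The gray points of Erbb2 run from 0.19 to 2.31.

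Levels were compared between genes per length, as CPM per kb of exon. In shNT samples the mean was 19.2 ± 4.31 (SD, n = 5) for Erbb4, 10.1 ± 2.48 for Nrg3 and 2.74 ± 0.573 for Nrg2. The other 5 genes lay between 0.157 ± 0.127 for Erbb2 and 0.424 ± 0.213 for Nrg1, with Nrg4 at 0.362, Egfr at 0.303 and Erbb3 at 0.281. By this measure Erbb4 was above 77.9% of the 15047 tested genes with a known exon length, Nrg3 above 65.7%, Nrg2 above 39.9% and Erbb2 above 4.80%.

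Within a sample the per-length level of Erbb4 was above that of Nrg3 in 8 of 9 samples, the exception being shRNA replicate 4, with a mean log2 ratio of 0.63 ± 0.54 (SD). Nrg3 was above Nrg2 in 9 of 9 samples with a log2 ratio of 1.93 ± 0.21, and Nrg2 above Nrg1 in 9 of 9 with 2.61 ± 0.74. Further down, neighbors in the order did not differ beyond their spread. The log2 ratio of Nrg1 to Nrg4 was 0.41 ± 0.85, that of Nrg4 to Egfr -0.14 ± 0.97 and that of Egfr to Erbb3 0.15 ± 0.69. Erbb3 was above Erbb2 in 8 of 9 samples, with 0.83 ± 1.06. Since the order was read from these samples, these ratios are a description.

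**Figure D3:**
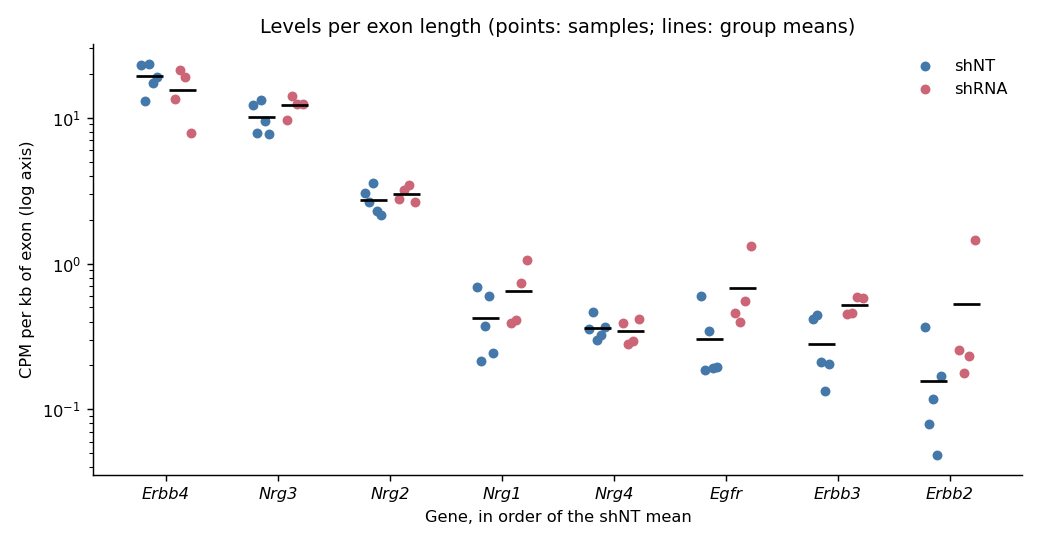
Level of each gene in CPM per kb of exon (vertical log axis), in the order of the shNT means, with points for samples and lines for group means. Erbb4, Nrg3 and Nrg2 lie above the other 5 genes in all 9 samples, and these 5 lie over one another.

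By per-length level, the receptor transcripts were mostly those of Erbb4 in all samples. Of the summed per-length level of the 4 receptors, Erbb4 took 94.4% to 97.9% in shNT samples (median 97.1%) and 92.0%, 95.4%, 93.3% and 70.2% in shRNA replicates 1 to 4. In shRNA replicate 4 the remainder was 12.9% Erbb2, 11.7% Egfr and 5.18% Erbb3. Of the summed per-length level of the 4 neuregulins, Nrg3 took 70.2% to 75.7% in shNT and 73.0% to 78.6% in shRNA samples, and Nrg2 took 17.9% to 23.7% and 15.9% to 21.1%. Nrg1 and Nrg4 each stayed at or under 6.34% in all 9 samples.

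Whether Erbb4 followed the tagged cells was asked by setting its log2 CPM against the mean log2 CPM of the 12 PV IN markers, which do not include it. The difference was -0.71, -0.81, -0.81, -1.17 and -0.98 in the shNT replicates. It was -0.98, -0.78, -0.81 and -1.07 in the shRNA replicates. The groups lay over one another, with means of -0.90 ± 0.18 (SD, n = 5) and -0.91 ± 0.14 (n = 4), and the difference of -0.013 had p = 0.992 in an exact two-sided permutation test. shNT replicate 2 and shRNA replicate 4, which were low in both Erbb4 and the PV IN markers, were not apart from the rest on this scale. Against Pvalb alone, the difference between groups was 0.55 (exact permutation p = 0.206).

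Erbb4 also moved with the share of uniquely aligned reads outside annotated exons, which was 9.76% to 18.6% in shNT and 12.4% to 27.2% in shRNA samples. Across the 9 samples Pearson's r between this share and log2 CPM of Erbb4 was -0.95 (permutation p = 0.0018, adjusted p = 0.0145 over the relations of 8 genes) and Spearman's rho was -0.75 (permutation p = 0.0255, adjusted p = 0.173). Without shRNA replicates 1 and 4, the samples farthest from the median share, r was -0.79, and within the 6 YTa31 samples it was -0.98. The YTa32 set holds 3 samples, too few for a value. None of the other 7 genes passed after adjustment, and their smallest adjusted p for r was 0.141. Within the YTa31 samples r was -0.87 for Nrg2 and -0.85 for Nrg3, against -0.17 and -0.06 over all 9 samples. For Nrg4 r was 0.69 over all 9 samples (adjusted permutation p = 0.141) and 0.76 within the YTa31 samples. Erbb3 had a rho of 0.70 over all 9 samples with the same adjusted p as that of Erbb4. The relation was therefore not shown to be particular to Erbb4. With the share as a covariate the Erbb4 log2 fold change was 0.13 (edgeR FDR 0.551). PV IN markers moved with the same samples, and their part and that of the read share cannot be told apart here.

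**Figure D4:**
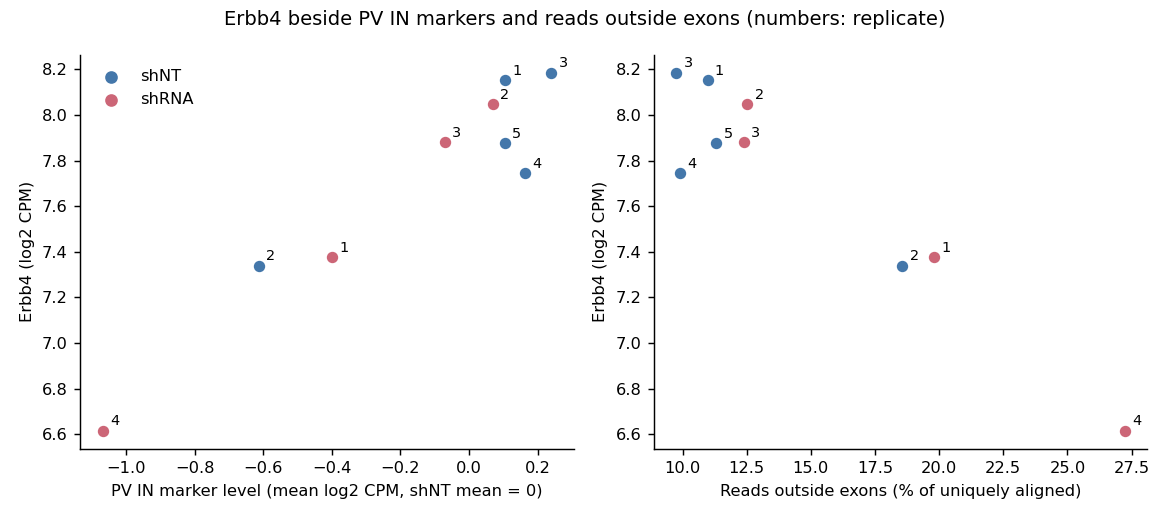
Log2 CPM of Erbb4 (vertical axes) against the mean log2 level of 12 PV IN markers relative to the shNT mean (left) and against the percent of uniquely aligned reads outside exons (right), for 9 samples numbered by replicate. shNT replicate 2, shRNA replicate 1 and shRNA replicate 4 have the lowest Erbb4 and marker levels and the highest shares, at 18.6%, 19.8% and 27.2%.

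The wider pathway was read from 4 lists with 68 genes, of which 64 were tested and 0 were called by the quasi-likelihood test in either direction, beside 1.75% of all genes. At an unadjusted p under 0.05 there were 22 higher and 6 lower of 64, beside 20.7% and 13.4% of all genes. A positive log2 fold change was found for 46 of 64, with a median of 0.23, beside 57.9% and 0.11 over all genes tested. The 64 genes had a median length of 66.2 kb, against 22.8 kb over all genes, and the 4084 genes of 30 to 100 kb had a median log2 fold change of 0.25. The same background applies to the lists below. The groups did not overlap for 8 genes with shRNA above and 3 with shRNA below, beside 8.97% and 6.68% of all genes, and 1 of the 8, Egf, passed the filter only through the shRNA samples. Other tests called more of them: DESeq2 10 higher and 2 lower, limma voom 15 higher, and edgeR's likelihood ratio test 11 higher. Of 15069 genes they called 1519 higher and 844 lower, 2301 higher and 618 lower, and 1688 higher and 542 lower, in that order. Without shNT replicate 1 the quasi-likelihood test called 10 higher and 1 lower, and without shNT replicate 2 it called 2 higher. Over all genes it called 1007 higher and 410 lower without the former, and 481 higher and 1 lower without the latter.

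Of 7 other ligands of the EGF family, Egf, Tgfa and Hbegf were tested, while Areg, Btc and Epgn were under the filter and Ereg had no read in any sample. Egf, which binds Egfr, had 0.362 ± 0.158 CPM in shNT and 1.20 ± 0.286 CPM in shRNA samples, with at most 40 reads in a sample (log2 fold change 1.72, FDR 0.0507). It passed the filter only through the shRNA samples, its highest shNT level being 0.596 CPM, so 1 or more shRNA samples were bound to lie above all shNT samples. Tgfa, another Egfr ligand, had 6.19 ± 3.28 and 12.8 ± 4.40 CPM (1.04, FDR 0.0822), with its highest level, 18.0 CPM, in shRNA replicate 4. Hbegf, which binds Egfr and Erbb4, had 20.3 ± 5.22 and 15.1 ± 0.940 CPM (-0.42, FDR 0.140).

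The list of 10 proteases that shed the ligands or cut the receptor within the membrane had 7 positive log2 fold changes and a median of 0.13. Adam17, a sheddase of neuregulins and of Erbb4, had 5.78 ± 1.22 CPM in shNT and 11.7 ± 6.62 CPM in shRNA samples without overlap (log2 fold change 1.01, FDR 0.0725). Adam10, a sheddase of EGF-family ligands, had 21.7 ± 6.73 and 38.1 ± 17.2 CPM (0.81, FDR 0.0895). Adam17 and Adam10 were highest in shRNA replicate 4, at 21.4 and 63.4 CPM, the library with the high astrocyte markers. Psenen, a subunit of gamma-secretase, had the other sign, with 41.1 ± 9.01 and 27.6 ± 5.31 CPM (-0.58, FDR 0.0808).

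Among the 38 adaptors and signaling kinases, 27 log2 fold changes were positive and the median was 0.20. Gab1, a docking protein that carries PI3K to activated receptors, had 9.13 ± 2.85 CPM in shNT and 21.7 ± 10.9 CPM in shRNA samples (log2 fold change 1.25, FDR 0.0580). Sos2, a Ras exchange factor, had 13.8 ± 3.42 and 22.4 ± 2.97 CPM (0.69, FDR 0.0630), and for both genes the groups did not overlap. Pik3r1, a regulatory subunit of PI3K, had 23.8 ± 5.71 and 37.0 ± 7.98 CPM (0.64, FDR 0.0694). Gab1 and Pik3r1 were highest in shRNA replicate 4, at 37.9 and 48.9 CPM. The part of that library in these differences was not tested.

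The 13 regulators and partners of the receptors had the highest median of the 3 larger lists, 0.44, with 10 positive. Ncor1, a corepressor that can travel with the cleaved Erbb4 intracellular domain, had 230 ± 86.3 CPM in shNT and 613 ± 294 CPM in shRNA samples (log2 fold change 1.41, FDR 0.0517). Cbl, a ubiquitin ligase for Egfr, had 14.0 ± 3.60 and 22.8 ± 1.56 CPM (0.71, FDR 0.0630), and for both genes the groups did not overlap. Erbin, a scaffold that binds Erbb2, had 30.3 ± 7.88 and 45.9 ± 6.36 CPM (0.60, FDR 0.0731).

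**Figure D5:**
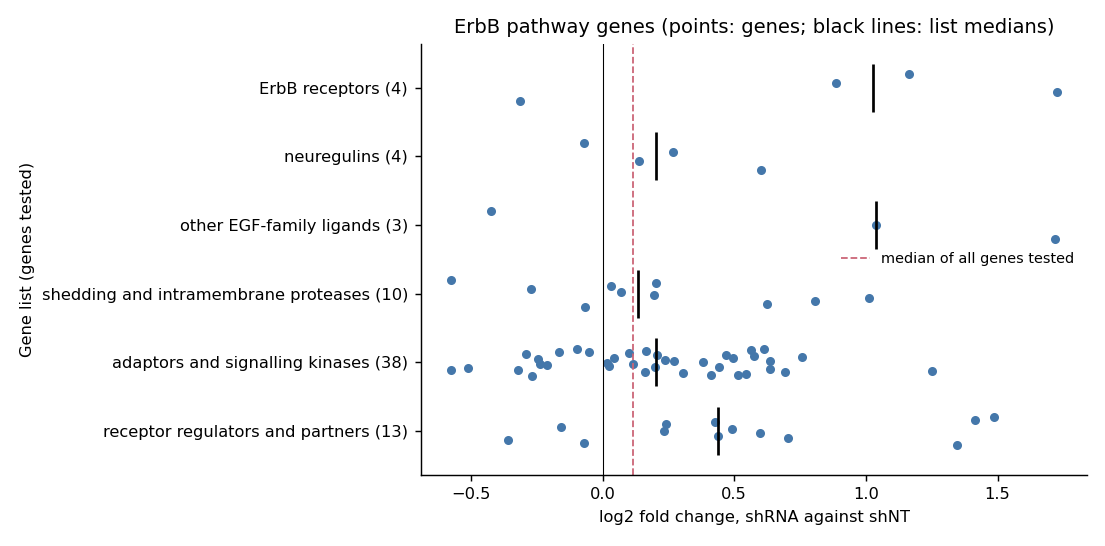
Log2 fold change of each tested gene (horizontal axis), shRNA against shNT, for the receptors, the neuregulins and 4 pathway lists, with points for genes, black lines for list medians and a dashed line for the median of all genes, 0.11. Each list holds genes on both sides of 0, and the receptor median of 1.03 lies between Erbb4 at -0.31 and Erbb2 at 1.73.

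Genes with a pattern over the samples like that of each member were listed by Pearson's r of log2 CPM over the 9 samples, among up to 9493 genes with a mean of at least 10 CPM. These values are a description, since all genes share the libraries, their depth and their makeup. For Erbb4 they were Gabrg3, a GABA-A receptor subunit (r = 0.993), Rcan3 (0.991) and D330012F22Rik (0.990). For Nrg3 they were Gpr125 (0.985), Arhgap5 (0.981) and Tfrc, the transferrin receptor (0.980). For Nrg2 they were Usp32 (0.962), Atf6 (0.936) and Cntn2 (0.933). Egfr and Erbb2 had the same leading pair, the transcription factor gene Sox5 (0.976 and 0.954) and the import receptor gene Tnpo1 (0.973 and 0.948), followed by Igf1r (0.972) for Egfr and by 2010109K11Rik (0.938) for Erbb2. For Erbb3 they were Pcnx (0.981), Gm15800 (0.975) and Cabp7 (0.974), for Nrg1 Tob2 (0.962), Cdc73 (0.950) and Zfp869 (0.930), and for Nrg4 Ankrd39 (0.958), Gt(ROSA)26Sor (0.947) and Cebpg (0.947).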

How the data were processed

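Ribosome-associated RNA was immunoprecipitated from 9 pools of CA2/CA3 tissue (5 shNT, 4 shRNA), and libraries were made with a SMARTer v4 kit. The authors used STAR to align reads to mm9 and HTSeq 0.6.0 to count unique alignments per gene, ignoring strand, and deposited raw counts per sample. The annotation release is not given in the sources used here. Of 37620 identifiers, 37205 were named, with positions and lengths, from GENCODE vM1 of mm9. The 5 summary rows of HTSeq were left out of library sizes. Among them, reads outside exons were 9.76% to 27.2% of uniquely aligned reads.

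The filter required a CPM of 1 or more in 1 or more samples (15069 genes kept, 22551 removed). After TMM normalization, edgeR's quasi-likelihood test was run over all 9 samples with condition as the only term (R 4.3.3, edgeR 4.0.16, limma 3.58.1, DESeq2 1.42.0). P-values were adjusted by Benjamini-Hochberg over all genes tested, and a call required both a 1.5-fold change and an FDR under 0.05. The biological coefficient of variation was 0.303, and log2 levels carried a prior count of 2. With 18281719 to 34578837 counts per sample, depth was lowest for Erbb2, Erbb3, Nrg1 and Nrg4, whose counts were under 100 in most samples. Single values were compared by exact two-sided permutation over the samples. The method was tested on simulated counts with 200 genes changed 2-fold. The quasi-likelihood test called 77 of them in the right direction, the likelihood ratio test 113, DESeq2 121 and limma voom 75. Of 14409 unchanged genes they called 2, 27, 38 and 2. A gene that was not called can therefore still differ.

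Named were the 8 members, Ablim3 and Pvalb as checks, in each of 4 pathway lists the 3 genes with the smallest FDR (no gene was called), and the 3 genes most like each member. Pdgfra, Gpr17, Olig2 and Neu4 and the genes under the filter were named after their values were seen. Members and lists were chosen with earlier results of these data known. Cell type markers were listed for astrocytes, microglia, endothelial cells, oligodendrocytes and their precursors, DG granule cells, pyramidal neurons of CA3 and CA2, PV interneurons and other interneurons. Alternatives were edgeR's likelihood ratio test, limma voom with sample quality weights, DESeq2, 2 other normalizations, 2 other filters, no fold minimum, a block on the replicate number or on the set of sample names, YTa31 samples alone, offsets for gene or exon length, the outside-exon read share as a covariate, and samples left out. Sample names fall into a YTa31 set (shNT and shRNA replicates 1 to 3) and a YTa32 set, and whether these are batches is not stated in the sources used here.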

Additional observations from a re-analysis of the deposited data

Results flagged for a closer look

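Among 38 groups of 4 or 5 values (19 measures, each in shNT and shRNA samples), 5 held a sample far from the others by Dixon's criterion, where chance gives about 1 in 20 groups, or 1.9. Egfr was at 15.0 CPM in shRNA replicate 4, against 4.51 to 6.22 CPM in the other 3 shRNA samples. Erbb2 was at 7.57 CPM in the same sample, against 0.923 to 1.33 CPM in the others. The astrocyte markers stood at a mean log2 level of 2.72 above the shNT mean in that sample, against 0.46 to 0.82 in the other shRNA samples, so 3 of the 5 values come from 1 library. The other 2 come from shNT replicate 2, whose PV IN markers were at -0.61, against 0.10 to 0.24 in the other shNT samples, and whose share of reads outside exons was 18.6%, against 9.76% to 11.3%. The cause was not tested.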

How the results depend on the processing

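The 8 genes were recomputed under 24 alternatives, giving 192 values: 181 kept their direction and their side of the threshold, 4 kept their direction and passed it (Egfr with DESeq2, with limma voom and without shNT replicate 1, and Erbb3 with limma voom), and 7 changed sign. DESeq2 gave no adjusted p for Erbb2. The changes of sign were Nrg2 in YTa31 samples alone (-0.0086), with the gene-length offset (-0.30) and without shNT replicate 5 (-0.023), Nrg3 with the gene-length offset (-0.28), Erbb4 with the outside-exon read share as a covariate (0.13), and Nrg4 without shNT replicate 2 (0.036) and without shRNA replicate 2 (0.017). With 1 sample left out, Nrg2 ran from -0.023 to 0.19 and Nrg4 from -0.21 to 0.036. The length offsets moved the median of all genes by -0.18 (gene) and -0.21 (exon). The cause was not tested.

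Counts of calls depended on the setting. Members called higher numbered 0 in the reported analysis, 1 with DESeq2, 2 with limma voom and 0 to 1 with 1 sample left out, and members called lower numbered 0 throughout. All genes called, 262 higher and 2 lower, became 1688 and 542 with the likelihood ratio test, 1519 and 844 with DESeq2, 2301 and 618 with limma voom, 501 and 14 with no filter, 199 and 1 with DESeq2 size factors, 352 and 8 with CPM of at least 1 in 4 samples, 376 and 1 with the set of names as a block, and 678 and 2 without both shNT replicate 2 and shRNA replicate 4. Both counts were 0 with library size only, with YTa31 samples alone, with either length offset and with the outside-exon read share as a covariate. With 1 sample left out they ran from 0 to 1007 and from 0 to 410, the highest without shNT replicate 1. They were 481 and 1 without shNT replicate 2, 142 and 0 without shRNA replicate 4, and 0 and 0 without any one of shNT replicates 3, 4 and 5 or shRNA replicates 1 and 3. Pathway genes called, 0 in the reported analysis, became 11 higher with the likelihood ratio test, 10 higher and 2 lower with DESeq2, 15 higher with limma voom, 3 higher with no filter, 1 higher with the set of names as a block, 3 higher without both libraries, and 0 to 10 higher and 0 to 1 lower with 1 sample left out.

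With the replicate block, 29 genes were called higher and 0 lower, and no member was called. The numbers do not pair the samples: deviations from the group means correlated by -0.27, -0.64, 0.49 and -0.18 between same-numbered samples, and 1 of 4 correlated best with its own number.

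The level of Erbb4 relative to PV IN markers, -0.013, changed sign with Pvalb alone (0.55) and without both libraries (0.065), and ran from -0.082 to 0.042 with 1 sample left out, being 0.034 without shNT replicate 1, 0.0099 without shNT replicate 2, 0.0088 without shNT replicate 3, 0.011 without shRNA replicate 1 and 0.042 without shRNA replicate 4. It passed no threshold in any of these.

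Each sample pools 6 mice, so the spread between single mice is not measured.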

Other observations

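Markers of other cells were also counted in the pulldown. The 8 markers of CA3 and CA2 pyramidal neurons summed to 556 to 1395 CPM in shNT and 1450 to 1822 CPM in shRNA samples, with 1 of 8 called higher and a median log2 fold change of 0.71. The 6 markers of DG granule cells summed to 67.8 to 125 CPM and 141 to 165 CPM, with 1 of 6 called higher and a median of 1.14. The 8 markers of other interneurons had 1 called higher and a median of 0.25, the 10 of microglia 0 called and 0.21, the 9 of endothelial cells 0 called and 0.47, and the 12 of PV interneurons 0 called and -0.31. Over all genes tested, 1.74% were called higher. No marker of these lists was at 0 in all samples. Their part in the neuregulin and ErbB values was not tested.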
